A study of Mus musculus with 6 samples.

Results

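Keratinocytes without *Sox4* were set against keratinocytes without *Sox11*, to ask which transcriptional changes the loss of either factor had in common and which differed between them. The members are the 2 Sox4cKO and the 2 Sox11cKO arrays, 4 of the 6 arrays in the series, chosen by the genotype in their titles. The remaining 2 arrays are of the double knockout, dcKO, and are used here for the estimate of the spread and as a reference. Genes on autosomes are described, 20499 of the 21368 genes with a symbol on the array.

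Each array carried knockout RNA in 1 colour and wild-type control RNA in the other. Sox4cKO cells were from *K14cre*;*Sox4* fl/fl skin and Sox11cKO cells from *K14cre*;*Sox11* fl/fl skin, and dcKO cells carried both pairs of floxed alleles. The strain given for every channel was 129SvEx:C57BL/6. In the paper this is the mixed background of the floxed mice, and the Cre mice crossed to them were FVB/N. Cre was driven by the promoter of keratin 14, so that recombination took place in the basal layer of stratified epithelia. The lines were bred from mice that also carried a *Sox12*-/- allele, and the sources used here do not state whether the cultured cells kept it. The cells were primary skin keratinocytes of newborn pups of unstated sex, grown on J2 fibroblast feeders for 3 passages and then off feeders for at least 2 passages. A biological replicate is a separate sample per the labels, and these leave unsaid if 1 preparation of wild-type RNA served several arrays. P-values therefore measure the spread between these arrays.

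*Sox4*, *Sox11* and *Sox12* form the SoxC group of transcription factors, which bind DNA through an HMG box and recognise nearly the same short motif. They are expressed in progenitor cells of many tissues, where they often act in place of each other. Keratinocytes of the basal layer divide and supply the cells above them, which differentiate into the cornified barrier. A comparison of the single knockouts shows where loss of 1 factor, with its partner still present, moves a gene the same way or another way.

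Values are log2 ratios of knockout over wild type, turned for the dye swap, so that a negative value means a lower signal in the knockout. Of the 55681 probes, 40.5% to 42.8% were well above background in the knockout channels and 37.3% to 42.9% in the wild-type channels of the 4 arrays. The SD of the log2 ratios over detected genes was 0.434 and 0.518 on the Sox4cKO arrays and 0.437 and 0.728 on the Sox11cKO arrays, so that Sox11cKO replicate 2 had the widest ratios. A gene is detected here when 1 of its channels was well above background on each of the 4 arrays, which held for 11045 autosomal genes. A gene was called when limma gave an adjusted p below 0.05 and the log2 value was beyond 1.5 in either direction. The precision of each value is limited by the 2 arrays per genotype. Keratinocyte markers were present throughout, since 16 of 16 basal keratinocyte genes on the list used here were detected. Of marker genes of fibroblasts, immune, melanocyte and endothelial cells, 2 of 16, 3 of 12, 4 of 8 and 2 of 7 were detected, and the median log2 level of the fibroblast list was 4.73 to 4.89 in the knockout and 4.83 to 5.03 in the wild-type channels, below the 6.01 to 6.09 of all autosomal genes in the channels.

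The targeted genes were examined first. On the Sox4cKO arrays *Sox4* had log2 ratios of -2.49 and -2.54, and on the Sox11cKO arrays 0.06 and -0.35. *Sox11* had log2 ratios of -3.31 and -2.65 on the Sox11cKO arrays, and of 0.82 and -0.97 on the Sox4cKO arrays. Each gene was thus lower on both arrays of its own knockout, and the groups did not overlap. Against wild type, *Sox4* had a log2 value of -2.52 (SE 0.16; limma adjusted p = 0.00395) in Sox4cKO and *Sox11* of -2.98 (SE 0.35; limma adjusted p = 0.0412) in Sox11cKO cells. The difference between the genotypes was -2.37 (SE 0.22; limma adjusted p = 0.0542) for *Sox4* and 2.91 (SE 0.49; limma adjusted p = 0.204) for *Sox11*, so even the deleted genes fell outside the call for a difference in this design. *Sox12* was not well above background in any channel of the 4 arrays. Another gene of the family, *Sox15*, had log2 ratios of 1.11 and 2.02 on the Sox4cKO arrays and of -0.32 and -1.37 on the Sox11cKO arrays. This difference of 2.41 was not called (limma adjusted p = 0.208). Between the genotypes the knockout channels of *Sox15* differed by 0.01 and the wild-type channels by -2.4.

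The single losses had few called genes in common. Of the autosomal genes, 29 (0.141%) were called in Sox4cKO cells, 11 higher (0.0537%) and 18 lower (0.0878%). In Sox11cKO cells 36 (0.176%) were called, 8 higher (0.039%) and 28 lower (0.137%). Both lists held *Gsta3*, *Gstk1*, *Snhg18* and *Krt90*, which make 13.8% of the first and 11.1% of the second. The first 3 genes moved the same way in both knockouts, and *Krt90* moved in opposite directions. A call in only 1 genotype does not show that the genotypes differ. Of the 25 genes called in Sox4cKO alone, 1 differed from Sox11cKO at a limma adjusted p below 0.05, and of the 32 called in Sox11cKO alone, 2 differed from Sox4cKO. The difference itself was called for 4 genes (0.0195%), 3 with a higher ratio in Sox4cKO (0.0146%) and 1 with a lower one (0.00488%). These counts rest on single arrays. Over all probes, 79 were called in Sox4cKO cells and 0 without Sox4cKO replicate 1 or 1 without replicate 2, while 48 were called in Sox11cKO cells and 798 without Sox11cKO replicate 1.

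**Figure D1:**
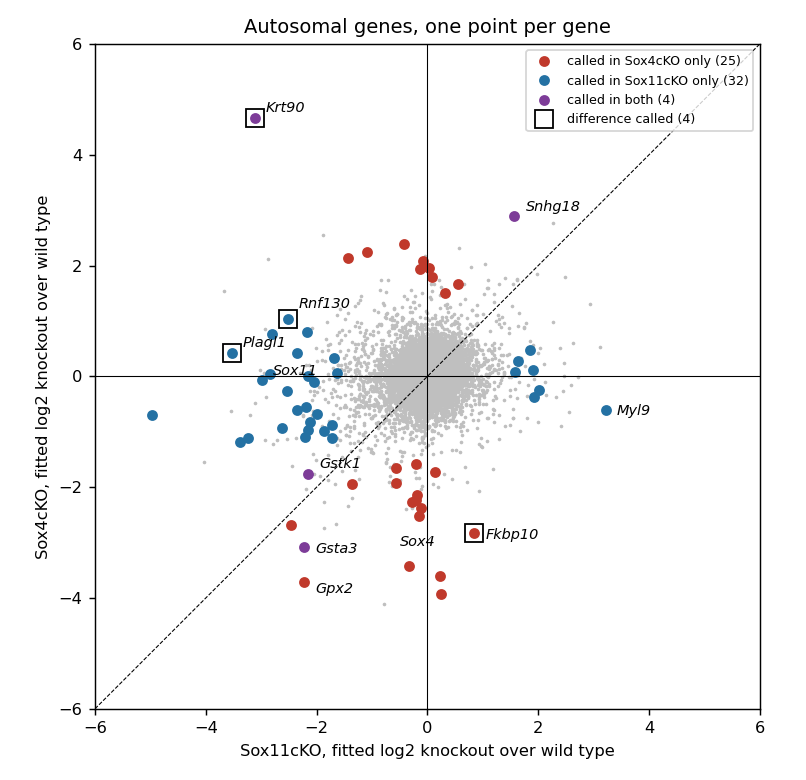
Fitted log2 ratio of knockout over wild type in Sox11cKO cells (horizontal axis) and Sox4cKO cells (vertical axis), with 1 point per autosomal gene, the dashed line marking equal effects and grey points showing genes called in neither. *Gsta3* and *Gstk1* lie in the lower left, and *Snhg18* lies in the upper right, at 2.89 in Sox4cKO and 1.57 in Sox11cKO cells. *Krt90* lies in the upper left, at 4.67 in Sox4cKO and -3.12 in Sox11cKO cells.

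The promoter of the gene with the largest difference and those of 4 detoxification genes with a lower signal than wild type on all 4 arrays are shown here, because the results below turn on them. They are the 250 bases before the annotated start, from RefSeq on GRCm38.p6, written 5′ to 3′ on the strand of the gene. The intervals are chr15:101562951-101563200 (minus strand) for *Krt90*, chr1:21240335-21240584 (plus strand) for *Gsta3*, chr6:42245685-42245934 (plus strand) for *Gstk1*, chr12:76795555-76795804 (minus strand) for *Gpx2* and chr16:93682969-93683218 (plus strand) for *Cbr3*. Capitals mark, on either strand, a match to the letters AACAAT or AACAAAG, which resemble the motif of SOX proteins, or to TGACNNNGC, the core of the antioxidant response element that is bound by NRF2 with small MAF proteins.
Krt90: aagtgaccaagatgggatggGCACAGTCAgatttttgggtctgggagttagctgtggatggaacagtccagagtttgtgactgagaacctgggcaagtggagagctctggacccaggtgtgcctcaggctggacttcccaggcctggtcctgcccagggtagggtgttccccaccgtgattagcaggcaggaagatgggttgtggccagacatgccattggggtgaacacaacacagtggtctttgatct
Gsta3: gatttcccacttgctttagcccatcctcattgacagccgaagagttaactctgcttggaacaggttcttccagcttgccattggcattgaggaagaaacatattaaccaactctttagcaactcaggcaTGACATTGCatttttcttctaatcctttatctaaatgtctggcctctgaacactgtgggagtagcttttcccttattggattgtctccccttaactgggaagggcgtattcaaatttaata
Gstk1: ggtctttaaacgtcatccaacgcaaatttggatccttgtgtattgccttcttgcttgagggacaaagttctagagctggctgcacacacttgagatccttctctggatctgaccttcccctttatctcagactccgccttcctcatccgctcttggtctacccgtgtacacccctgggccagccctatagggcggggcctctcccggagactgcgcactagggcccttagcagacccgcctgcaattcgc
Gpx2: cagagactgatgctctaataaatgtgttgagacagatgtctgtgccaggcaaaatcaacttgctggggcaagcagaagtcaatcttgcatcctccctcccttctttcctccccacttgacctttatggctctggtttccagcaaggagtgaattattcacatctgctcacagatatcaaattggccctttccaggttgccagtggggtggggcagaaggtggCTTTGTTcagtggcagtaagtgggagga
Cbr3: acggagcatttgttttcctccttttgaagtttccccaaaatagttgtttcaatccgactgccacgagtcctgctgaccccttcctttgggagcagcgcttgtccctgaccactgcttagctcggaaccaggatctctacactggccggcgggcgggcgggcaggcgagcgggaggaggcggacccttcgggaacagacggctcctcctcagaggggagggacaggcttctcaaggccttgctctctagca

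The *Krt90* and *Gsta3* windows each hold TGACNNNGC, and the *Gpx2* window holds AACAAAG, read on the opposite strand. The *Gstk1* and *Cbr3* windows hold none of the 3 motifs, and neither do those of *Plagl1*, *Rnf130*, *Trpv4*, *Gas6*, *Sox4* and *Sox11*. The windows of *Snhg18* and *Irs1* hold TGACNNNGC. Of 32851 promoter windows of this length, 9.42% held AACAAT, 5.03% AACAAAG and 10.2% TGACNNNGC. The first pair of motifs share the letters AACAA, and no stretch can match both from the same start. A match is a description of these letters in this window. *Fkbp10* had no entry in the table of promoters.

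*Krt90*, which encodes a type II keratin, an intermediate filament protein of epithelial cells, changed in opposite directions. Its log2 ratios were 4.70 and 4.64 on the Sox4cKO arrays and -3.41 and -2.84 on the Sox11cKO arrays. All 4 ratios were far from 0, and the groups lay on either side of it. The fitted effects were 4.67 (limma adjusted p = 0.00106) in Sox4cKO and -3.12 (limma adjusted p = 0.00623) in Sox11cKO cells, and they differed by 7.79 (SE 0.26; limma adjusted p = 0.000317), the largest difference among autosomal genes that was called. In dcKO cells its ratios were -0.47 and 0.35, from signals of 4.69 to 5.22 in knockout and wild-type channels alike, below the median of 6.01 to 6.09 over all autosomal genes on the single knockout arrays. The log2 signal of *Krt90* was 10.5 and 10.8 in Sox4cKO cells beside 5.8 and 6.2 in their wild-type channels, and 6.2 and 5.9 in Sox11cKO cells beside 9.6 and 8.7 in theirs. Thus the knockout channels differed between genotypes by 4.63 and the wild-type channels by -3.16, and the wild-type cells set against Sox11cKO had more *Krt90* than those set against Sox4cKO. The difference stayed called when any single array was left out and was lost with the processed signals of Feature Extraction (9.30; limma adjusted p = 0.769). The Sox4cKO call was lost without Sox4cKO replicate 1 (4.29; limma adjusted p = 0.0698). *Krt90* has 1 probe on the array. Of the 13 simple and wound keratins on the list used here, 11 were detected. *Krt90* was the only one called for the difference, against 0.0195% of all autosomal genes.

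**Figure D2:**
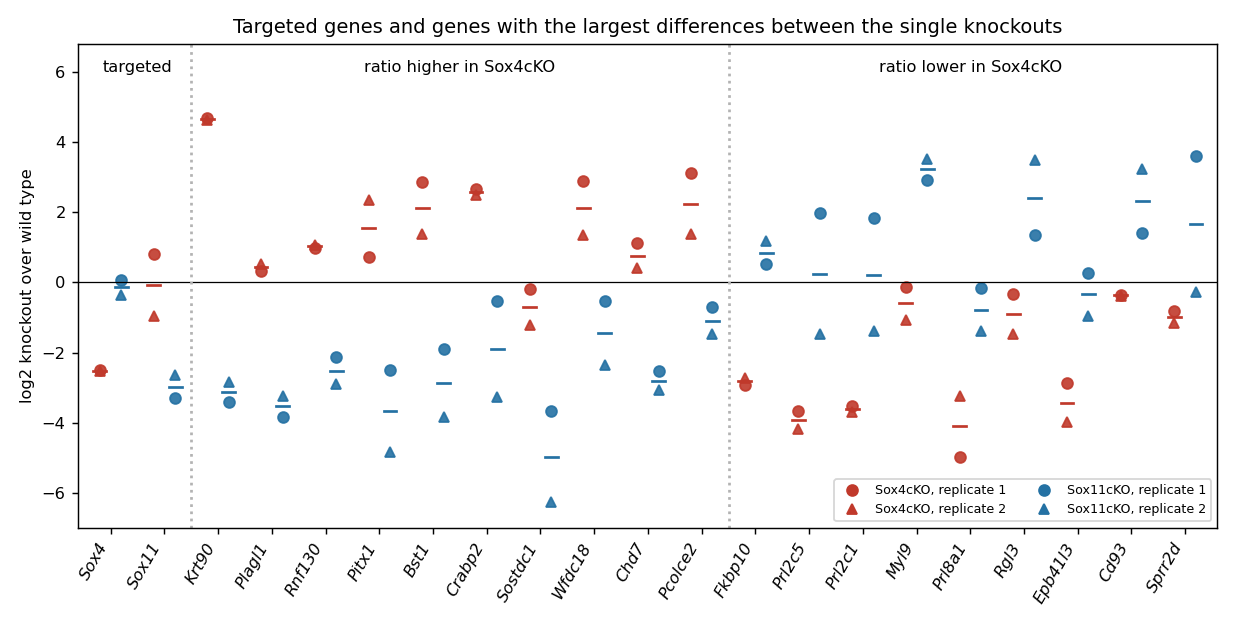
Log2 ratio of knockout over wild type on each single knockout array for the targeted genes and for the genes with the largest differences, 10 with a higher and 9 with a lower ratio in Sox4cKO, with short lines for the mean of 2 arrays. *Krt90*, *Plagl1*, *Rnf130* and *Fkbp10* were called for the difference, and the other genes, beside the targeted pair, were picked for groups that do not overlap.

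*Plagl1* and *Rnf130* were lower in Sox11cKO cells and not in Sox4cKO cells. *Plagl1*, an imprinted gene for a zinc finger transcription factor that restrains growth, had log2 ratios of 0.33 and 0.53 on the Sox4cKO arrays and -3.83 and -3.23 on the Sox11cKO arrays. The difference was 3.96 (SE 0.28; limma adjusted p = 0.0174). In Sox11cKO cells its signal was not well above background, at least 8.94-fold lower than in wild type. The log2 signal of *Plagl1* in the wild-type channels was 8.99 and 9.02 on the Sox4cKO and 8.40 and 7.93 on the Sox11cKO arrays, a gap of 0.84, beside a gap of 4.81 in the knockout channels. Of its 4 probes, 2 gave differences of 3.96 and 3.94, both called, and 2 gave 0.11 and 0.10. In dcKO cells, which lack *Sox11* as well, the ratios of *Plagl1* were 0.23 and 1.52, and the first of these came from a pair of low signals, 5.95 in the knockout and 5.72 in its control.

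*Rnf130*, which encodes a RING finger ubiquitin ligase, had log2 ratios of 0.99 and 1.08 on the Sox4cKO arrays and of -2.12 and -2.91 on the Sox11cKO arrays. The difference was 3.55 (SE 0.26; limma adjusted p = 0.0174), with 1.62 from the knockout channels and -1.93 from the wild-type channels. The ratios in dcKO cells were 1.85 and 1.60, on the side of Sox4cKO. The other 2 probes of *Rnf130* were not detected. The calls of *Plagl1* and *Rnf130* for the difference were lost without Sox4cKO replicate 1 (3.59 and 3.85) or replicate 2 (4.34 and 3.25), and that of *Rnf130* was lost without either dcKO array as well (limma adjusted p = 0.0511 each).

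*Fkbp10*, which encodes a prolyl isomerase of the endoplasmic reticulum that aids collagen folding, was the only autosomal gene called with a lower ratio in Sox4cKO. Its log2 ratios were -2.93 and -2.72 on the Sox4cKO arrays and 0.53 and 1.17 on the Sox11cKO arrays, a difference of -3.67 (SE 0.22; limma adjusted p = 0.00986). Signals of *Fkbp10* in the wild-type channels were 13.5 and 13.7 on the Sox4cKO arrays and 11.3 and 7.8 on the Sox11cKO arrays. The knockout channels differed between genotypes by 0.41 and the wild-type channels by 4.08. The call was lost without Sox4cKO replicate 1 (-3.87; limma adjusted p = 0.0741) or replicate 2 (-3.48; limma adjusted p = 0.105). In dcKO cells the ratios were -1.18 and -0.63.

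**Figure D3:**
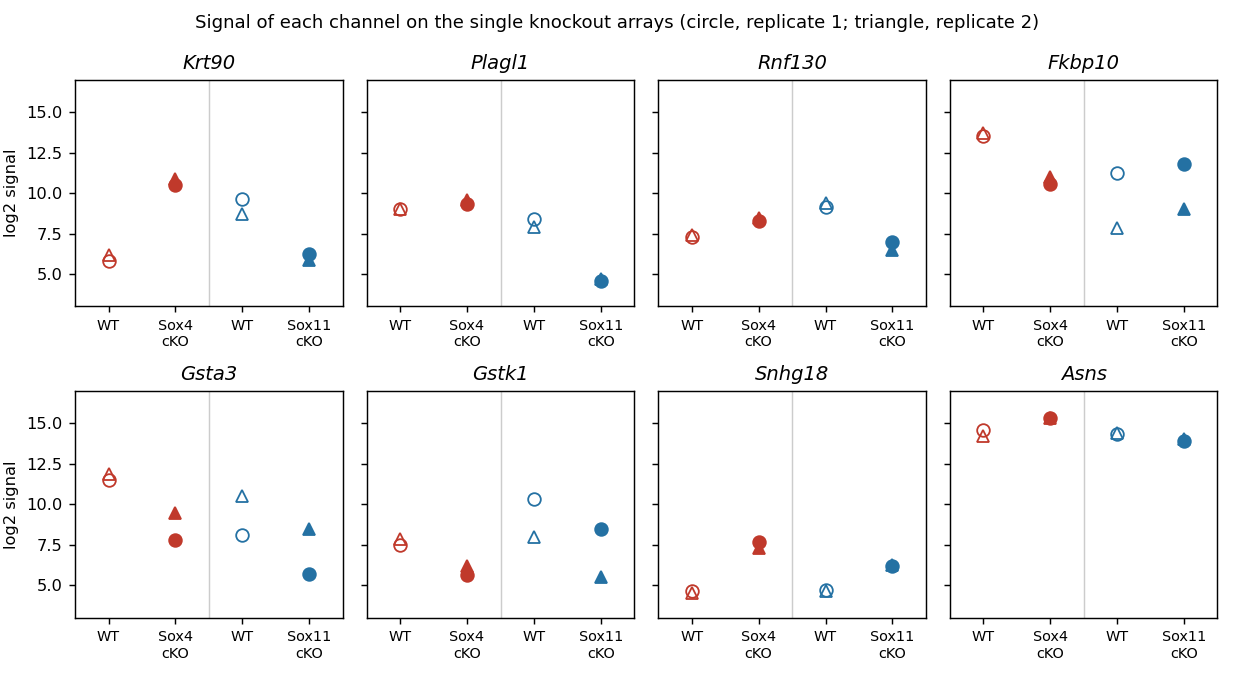
Log2 signal of each channel on the single knockout arrays for 8 genes, with open symbols for wild-type RNA and filled symbols for knockout RNA. For *Krt90* and *Rnf130* both kinds of channel shifted between genotypes, for *Plagl1* mainly the knockout channel, and for *Fkbp10* the wild-type channel.

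The signals of the 4 wild-type samples varied as much as those of the knockouts. Over the 11045 detected genes, the wild-type level of the Sox4cKO arrays minus that of the Sox11cKO arrays had an SD of 0.593, and the knockout level had an SD of 0.588. Levels differed by more than 1 log2 unit between these arrays for 728 genes in the wild-type channels and for 705 in the knockout channels. Median levels of the 8 channels lay between 8.97 and 9.01. A difference between the genotypes in the ratio therefore holds the difference between their controls as well, and the part of each was not tested.

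Next to these 4 genes stood others that missed the adjusted threshold. *Podxl*, *Lmo1*, *Myl9* and *Sox4* had differences of 2.22, 2.26, -3.82 and -2.37 at limma adjusted p = 0.0542, and *Slc23a3* of -2.26 at limma adjusted p = 0.0568. Among detected genes, both Sox4cKO ratios lay above both Sox11cKO ratios for 1731 (15.7%) and below them for 1742 (15.8%), and at an unadjusted limma p below 0.05 the difference was positive for 1016 autosomal genes (4.96%) and negative for 935 (4.56%). The genes named in the following 2 paragraphs were picked as the largest differences of this kind and were not called.

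Of the genes with a higher ratio in Sox4cKO, several were lower in Sox11cKO cells than in their own controls. *Sostdc1*, a secreted antagonist of BMP and Wnt signalling, had log2 ratios of -0.19 and -1.21 on the Sox4cKO arrays and of -3.67 and -6.27 on the Sox11cKO arrays, a difference of 4.27 (limma adjusted p = 0.118). It was called in Sox11cKO, where its signal did not clear the background and was at least 29.6-fold below wild type (limma adjusted p = 0.0144), and a second probe gave a difference of 4.78. The wild-type channels of *Sostdc1* differed by -3.96, with more signal beside Sox11cKO. *Chd7*, a chromatin remodelling ATPase, had ratios of 1.11 and 0.41 against -2.53 and -3.07 (difference 3.56; limma adjusted p = 0.0614). *Pitx1*, a homeobox transcription factor, had ratios of 0.73 and 2.35 against -2.49 and -4.84 (difference 5.2; limma adjusted p = 0.157). The knockout channels of *Pitx1* differed between genotypes by -0.48 and the wild-type channels by -5.68. For *Sostdc1*, *Chd7* and *Pitx1* every Sox11cKO ratio was below every Sox4cKO ratio.

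Others were higher in Sox4cKO cells than in their own controls. *Wfdc18*, a secreted WAP domain protein, had ratios of 2.90 and 1.36 in Sox4cKO and of -0.54 and -2.35 in Sox11cKO (difference 3.57; limma adjusted p = 0.0614). *Pcolce2*, an enhancer of procollagen processing, had ratios of 3.13 and 1.37 against -0.70 and -1.48 (difference 3.34; limma adjusted p = 0.0888), and *Bst1*, an ectoenzyme of NAD metabolism, of 2.85 and 1.38 against -1.91 and -3.85 (difference 4.99; limma adjusted p = 0.0711). *Wfdc18* and *Pcolce2* were called in Sox4cKO against wild type. *Crabp2*, a carrier of retinoic acid, had ratios of 2.65 and 2.48 against -0.52 and -3.27 (difference 4.45; limma adjusted p = 0.225). For *Crabp2* the knockout channels differed by 0.09 and the wild-type channels by -4.36.

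Among genes with a lower ratio in Sox4cKO, proliferin genes of the prolactin family on chromosome 13 came first. *Prl2c5* had log2 ratios of -3.67 and -4.18 on the Sox4cKO arrays and of 1.97 and -1.48 on the Sox11cKO arrays (difference -4.17; limma adjusted p = 0.124). *Prl2c1* had nearly the same ratios, -3.53, -3.69, 1.83 and -1.39 in that order, and was likewise called in Sox4cKO against wild type. These genes are close copies, and their probes may read the same transcripts. *Prl8a1* had ratios of -4.99 and -3.23 in Sox4cKO and of -0.17 and -1.39 in Sox11cKO (difference -3.33; limma adjusted p = 0.456). The wild-type channels of *Prl8a1* differed between genotypes by 4.04 and the knockout channels by 0.71, while for *Prl2c5* these gaps were 0.86 and -3.31. The Sox11cKO ratios of *Prl2c5* and *Prl2c1* lay on either side of 0.

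*Myl9*, the regulatory light chain of smooth muscle and nonmuscle myosin, had log2 ratios of -0.13 and -1.07 on the Sox4cKO arrays and of 2.92 and 3.52 on the Sox11cKO arrays (difference -3.82, SE 0.36; limma adjusted p = 0.0542). It was called in Sox11cKO at 3.22 (limma adjusted p = 0.0144). Of the 20 contractile genes on the list used here, 18 were detected. All gene lists were chosen with earlier results of these data known, so counts of their members describe these arrays and are not a separate test. At an unadjusted limma p below 0.05, 7 of the 20 had a lower ratio in Sox4cKO and 0 a higher one, against 4.56% and 4.96% of all autosomal genes. Among the 7 were *Tagln* (transgelin), with ratios of 0.17 and -1.58 against 1.87 and 0.72, and *Actg2* (enteric smooth muscle actin), with -0.63 and -1.70 against 0.70 and 1.45. For *Myl9*, *Tagln* and *Actg2* the wild-type channels differed between genotypes by 2.02, 1.59 and 1.67. The knockout channels differed by -1.8, -0.41 and -0.57. Wild-type *Myl9* was 12.71 on Sox4cKO replicate 2 and 8.54 to 8.66 on the other single knockout arrays. *Cnn1*, *Cald1*, *Acta2* and *Tpm4* had differences of -1.07 to -0.63. The median difference of the list was -0.29, against 0.01 over all autosomal genes, and 0 of the 20 were called for the difference.

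*Epb41l3*, a linker of the membrane skeleton, had ratios of -2.88 and -3.98 in Sox4cKO and of 0.27 and -0.95 in Sox11cKO (difference -3.09; limma adjusted p = 0.109), and was called in Sox4cKO. The wild-type channels of *Epb41l3* differed between genotypes by 4.46 and the knockout channels by 1.37. *Rgl3*, *Cd93* and *Sprr2d* had differences from -3.32 to -2.66 (limma adjusted p from 0.276 to 0.519). Of further genes called in Sox4cKO alone, the intermediate filament gene *Vim* (vimentin) had ratios of -1.63 and -2.90 against -0.40 and -0.15 in Sox11cKO, the mucin-type glycosyltransferase *Gcnt3* of 2.43 and 1.73 against 0.02 and -0.19, and the MHC class II gene *H2-Ab1* of 1.84 and 1.75 against 0.04 and 0.11. *Krt15*, a keratin of basal cells, had ratios of -1.52 and -1.64 against -0.36 and -0.03. None of the 4 was called for the difference (limma adjusted p from 0.0614 to 0.225). On the Sox11cKO arrays *Vim* and *H2-Ab1* were not well above background in any channel. Of the fibroblast markers *Col1a2* and *S100a4* were detected, and 10 of the 16 were well above background in 0 of the 8 channels of the single knockout arrays, so the part of other cells in the fall of *Vim* was not tested. *Cd74* and *H2-Aa*, partners of *H2-Ab1* in antigen presentation, had ratios between -0.17 and 0.12 on the 4 arrays.

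Genes called in Sox11cKO alone included *Slc23a3*, *Hsd17b11*, *Pla1a* and *Sting1* with fitted log2 values of 1.85 to 2.02, beside -0.37 to 0.47 in Sox4cKO. In Sox11cKO the signal of *Palmd* did not clear the background and was at least 6.84-fold lower, with ratios of 0.29 and -0.22 in Sox4cKO. *Lmo1*, a LIM domain transcription cofactor, had ratios of -2.20 and -2.86 in Sox11cKO and of -0.03 and -0.51 in Sox4cKO. None of these was called for the difference (limma adjusted p from 0.0542 to 0.294). On the Sox4cKO arrays log2 signals were low, 4.97 to 5.78 for *Lmo1*, 5.32 to 5.65 for *Palmd* and 5.17 to 5.72 for *Sting1*. There *Lmo1* was well above background in 0 knockout and 1 wild-type channel, and *Palmd* and *Sting1* in 1 and 0. A change of these genes in Sox4cKO could thus hardly be measured. The wild-type channels of *Lmo1* differed between genotypes by -2.94 and the knockout channels by -0.68.

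Effects in common were tested as the mean of both single effects, which does not need a call in each. The called genes included 3 glutathione enzymes and a carbonyl reductase, and all but 1 were lower than wild type. Of the autosomal genes, 20 (0.0976%) were called for the mean effect, 1 higher (0.00488%) and 19 lower (0.0927%). Of these, 16 had the same sign on all 4 arrays, and 15 were beyond 1 log2 unit in the same direction in both genotypes. Called in both genotypes were 3, in Sox4cKO alone 4, in Sox11cKO alone 7, and in neither 6. The test of the difference passed an adjusted p of 0.05 for *Plagl1* and an unadjusted p of 0.05 for 11 of the 20, so a call for the mean does not show equal effects. Among detected genes, 824 (7.46%) were higher and 772 (6.99%) were lower than wild type on all 4 arrays, and at an unadjusted p below 0.05 the mean was positive for 1294 autosomal genes (6.31%) and negative for 1246 (6.08%). Without Sox4cKO replicate 1 only 2 of the probes on the array were called for the mean, and without replicate 2 only 7, beside 33 with all arrays.

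**Figure D4:**
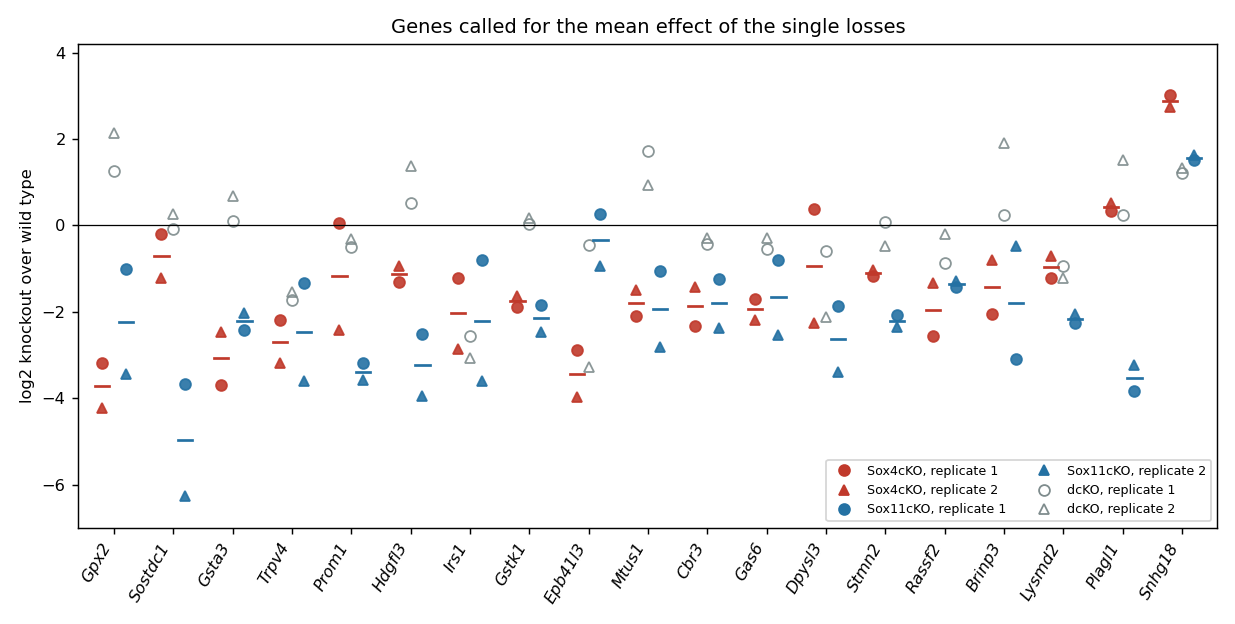
Log2 ratio of knockout over wild type on each of the 6 arrays for 19 of the 20 genes called for the mean effect of the single losses, with short lines for the mean of each single knockout and open grey symbols for dcKO. The single knockout ratios of *Gpx2*, *Gsta3*, *Gstk1* and *Cbr3* lie below 0 on every array, while the dcKO ratios of *Gpx2* are 1.26 and 2.15.

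*Gsta3*, a glutathione S-transferase that conjugates glutathione to toxic electrophiles, had log2 ratios of -3.70 and -2.46 on the Sox4cKO arrays and of -2.41 and -2.02 on the Sox11cKO arrays. It was lower in both knockouts, with a mean effect of -2.65 (SE 0.13; limma adjusted p = 0.00251) and a difference between genotypes of -0.86 (SE 0.26; limma adjusted p = 0.588). A second probe had a mean effect of -2.32. The level of *Gsta3* in the wild-type channels ranged from 8.1 to 11.9, and the knockout lay below its own control each time. In dcKO cells the ratios were 0.11 and 0.69. The call for the mean held when any single array was left out and was lost with an offset of 50 (-2.43; limma adjusted p = 0.149) and with the processed signals of Feature Extraction (-2.90; limma adjusted p = 0.319), while the call in Sox4cKO alone was lost without Sox4cKO replicate 1 (-2.70; limma adjusted p = 0.134) or replicate 2 (-3.46; limma adjusted p = 0.085).

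*Gstk1*, a glutathione transferase of mitochondria and peroxisomes, had log2 ratios of -1.89 and -1.63 on the Sox4cKO arrays and of -1.84 and -2.46 on the Sox11cKO arrays. Its mean effect was -1.96 (SE 0.13; limma adjusted p = 0.00561), and the genotypes differed by 0.39 (SE 0.27; limma adjusted p = 0.90). The dcKO ratios were 0.04 and 0.18. *Gpx2*, a glutathione peroxidase of epithelia, had ratios of -3.19 and -4.23 in Sox4cKO and of -1.02 and -3.44 in Sox11cKO, a mean effect of -2.97 (SE 0.32; limma adjusted p = 0.0273), against 1.26 and 2.15 in dcKO. *Cbr3*, a carbonyl reductase, had ratios of -2.32 and -1.42 against -1.23 and -2.37 (mean -1.84, SE 0.21; limma adjusted p = 0.0344), and of -0.44 and -0.29 in dcKO. The groups overlapped for *Gpx2* and *Cbr3*. Without Sox4cKO replicate 1 or replicate 2 the calls of *Gstk1* (-1.83 and -2.08), *Gpx2* (-3.04 and -2.90) and *Cbr3* (-1.49 and -2.18) were lost, and that of *Cbr3* was lost without Sox11cKO replicate 2 or either dcKO array as well.

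The wider list of glutathione and redox genes held 37, of which 33 were detected. For the mean effect 3 (*Gpx2*, *Gsta3*, *Cbr3*) were called, against 0.0976% of all autosomal genes. At an unadjusted limma p below 0.05, 8 of the 37 had a lower mean and 1 a higher one, against 6.08% and 6.31% of all autosomal genes. The median mean effect was -0.08, against 0.00 over all autosomal genes, so the list as a whole stayed near 0. When single knockout arrays were left out, this median was -0.2 to -0.06. *Gsta2* had a mean of -1.83, with ratios of -2.12, -0.15, -1.81 and -3.25 on the 4 arrays. Some members went apart. *Nqo1*, a quinone reductase and a classic NRF2 target, had ratios of -0.93 and -1.30 in Sox4cKO and of 0.12 and 1.80 in Sox11cKO (difference -2.08), and *Gsto1*, an omega class transferase, of 0.70 and 0.86 against -0.59 and -1.64 (difference 1.90). Neither was called for the difference.

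The falls of these enzymes were set against dcKO in the same model, a contrast chosen after seeing the data. The mean of the single losses minus dcKO was called for 243 autosomal genes (1.19%). It was -3.05 for *Gsta3* (SE 0.22; limma adjusted p = 0.00396), -2.06 for *Gstk1* (limma adjusted p = 0.0149) and -4.68 for *Gpx2* (limma adjusted p = 0.0176). For *Cbr3* it was -1.47 and was not called (limma adjusted p = 0.136). The controls differed as well. The log2 signal of *Gpx2* in wild-type channels was 12.4 to 13.5 on the single knockout arrays and 7.58 and 7.92 on the dcKO arrays, while in the knockout channels it was 8.90 to 11.9 and 8.84 and 10.1. Wild-type *Gsta3* was 8.11 to 11.9 on the single knockout arrays and 8.23 and 9.18 on the dcKO arrays.

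*Snhg18*, a long noncoding RNA that hosts small nucleolar RNAs, was the only autosomal gene called higher for the mean effect. Its log2 ratios were 3.03 and 2.75 on the Sox4cKO arrays and 1.51 and 1.63 on the Sox11cKO arrays, and the mean effect was 2.23 (SE 0.11; limma adjusted p = 0.00251). In the wild-type channels of the single knockout arrays *Snhg18* was not well above background. It was at least 5.16-fold higher in Sox4cKO and at least 2.50-fold higher in Sox11cKO. The dcKO ratios were 1.22 and 1.32. On the dcKO arrays the wild-type channels had log2 signals of 8.02 and 8.24, beside 4.53 to 4.69 on the single knockout arrays. Every knockout sample in the series was above its control for *Snhg18*. The call for the mean was lost without Sox4cKO replicate 1 (2.13; limma adjusted p = 0.0595), and that in Sox11cKO alone without Sox11cKO replicate 2 (1.46) or either dcKO array (limma adjusted p = 0.0548).

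Other genes that were lower in both single losses encode signalling proteins and a channel. *Trpv4*, a calcium-permeable cation channel of keratinocytes, had log2 ratios of -2.20 and -3.19 in Sox4cKO and of -1.34 and -3.60 in Sox11cKO (mean -2.58; limma adjusted p = 0.0179), and of -1.73 and -1.54 in dcKO. *Irs1*, an adaptor of insulin and IGF receptors, had ratios of -1.21 and -2.86 against -0.81 and -3.60 (mean -2.12; limma adjusted p = 0.0273), and of -2.55 and -3.08 in dcKO, while its second probe had a mean of -0.62. *Gas6*, a ligand of TAM receptor kinases, had ratios of -1.70 and -2.18 against -0.80 and -2.53 (mean -1.80; limma adjusted p = 0.0344). For these 3 genes the ratios of the genotypes overlapped, and the calls were lost without Sox4cKO replicate 1 (-2.57, -2.12 and -1.74) or replicate 2 (-2.59, -2.12 and -1.87), that of *Gas6* also without Sox11cKO replicate 2 (-1.40).

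*Stmn2*, a protein that destabilises microtubules, had log2 ratios of -1.16 and -1.04 in Sox4cKO and of -2.08 and -2.35 in Sox11cKO (mean -1.66; limma adjusted p = 0.00674). *Hdgfl3* had ratios of -1.31 and -0.93 against -2.52 and -3.96 and was at least 8.4-fold lower in Sox11cKO, where it was not well above background. Both genes were lower on all 4 arrays and lowest in Sox11cKO, and neither was called for the difference (limma adjusted p = 0.306 and 0.368). *Mtus1*, *Rassf2*, *Brinp3* and *Lysmd2* had means from -1.86 to -1.56. *Sostdc1*, *Prom1*, *Dpysl3*, *Epb41l3* and *Plagl1* were called for the mean although most of the change lay in 1 genotype, as with *Prom1*, at 0.05 and -2.41 against -3.19 and -3.58.

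Genes with a positive mean on all 4 arrays that were not called included the chemokine *Cxcl3* at 2.52, the lactate transporter *Slc16a3* at 2.13, the interferon-induced *Oas1a* at 2.12 and the simple epithelial keratin *Krt7* at 1.60 (limma adjusted p from 0.0713 to 0.24). *Krt18*, the type I keratin of simple epithelia, had ratios of 1.41, 1.77, 1.15 and 1.00, a mean of 1.33 short of the threshold on the log2 value. *Krt7* had ratios of 3.24 and 3.87 in dcKO cells. *Krt18* had ratios of -4.57 and -3.50 there, so that these keratins went apart in the double knockout.

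A further list, also chosen with earlier results known, held genes of amino acid metabolism that respond to ATF4. ATF4 is the transcription factor of the integrated stress response, and all 21 genes were detected. At an unadjusted limma p below 0.05, 14 of the 21 had a higher ratio in Sox4cKO and 0 a lower one, against 4.96% and 4.56% of all autosomal genes, and 0 were called for the difference. The median log2 ratio of the list was 0.65 in Sox4cKO and -0.33 in Sox11cKO, and the median difference was 0.97. *Asns* (asparagine synthetase) had ratios of 0.72 and 1.09 against -0.46 and -0.34, *Atf4* itself of 1.19 and 0.61 against 0.24 and -0.63, and *Psph*, the last enzyme of serine synthesis, of 1.11 and 1.23 against 0.20 and -0.82. *Trib3* and *Chac1*, known ATF4 targets, had differences of 1.73 and 1.52. At the low end *Sesn2* had a difference of -0.19 and *Phgdh* of 0.04. For 14 of the 21 genes both Sox4cKO ratios lay above both Sox11cKO ratios and for 0 below them, against 15.7% and 15.8% of detected autosomal genes. The median difference fell from 0.97 to 0.56 without Sox4cKO replicate 2, and was 0.75 to 1.28 without any other of the single knockout arrays. For *Asns* the knockout channels differed by 1.34 and the wild-type channels by 0.03, and for *Trib3* by 2 and 0.28. The largest differences of the list were those of *Nupr1* (2.58) and *Vldlr* (2.54, with 0.79 for its second probe). Their knockout channels differed by 0.72 and 4.5 and their wild-type channels by -1.86 and 1.95. The Sox11cKO ratios of *Nupr1* were 1.02 and -3.63.

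Of the 34 interferon response genes on the list used here, 12 were detected. At an unadjusted limma p below 0.05, 11 of the 34 had a lower ratio in Sox4cKO and 0 a higher one, against 4.56% and 4.96% of all autosomal genes. Both Sox4cKO ratios lay below both Sox11cKO ratios for 14 of the 34 and above them for 6. Of all 20499 autosomal genes they lay below for 3171 and above for 3230. The median log2 ratio was 0.10 in Sox4cKO and 0.49 in Sox11cKO. *Psmb8*, a subunit of the immunoproteasome, had ratios of -0.14 and 0.11 against 1.31 and 4.10, *Sting1*, the adaptor of cytosolic DNA sensing, of 0.55 and 0.38 against 1.38 and 2.32, and *Zbp1*, a nucleic acid sensor, of -0.13 and 0.25 against 0.89 and 1.86. *Sting1* was called in Sox11cKO, and none of the 34 was called for the difference. On the Sox4cKO arrays *Psmb8* was not well above background in any channel (log2 signals of 4.92 to 5.06). *Sting1* was well above background there in 1 knockout and 0 wild-type channels. The wild-type channels differed between genotypes by -1.67 for *Psmb8* and -1.35 for *Sting1*, and the knockout channels by -4.39 and -2.73. For the mean effect, 15 of the 34 had a positive value at such a p and 0 a negative one, against 6.31% and 6.08% of all autosomal genes, with *Oas1a* and *Ifi27* positive on each of the 4 arrays. The median difference of the list was -0.31 with all arrays, and -0.5 to -0.21 without 1 of the 4 arrays. Its median mean effect was 0.24 with all arrays, and 0.21 to 0.32 without 1 of the 4. *Isg15* and *Ifit1*, markers of a type I interferon response, had ratios between -0.73 and 1.00.

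**Figure D5:**
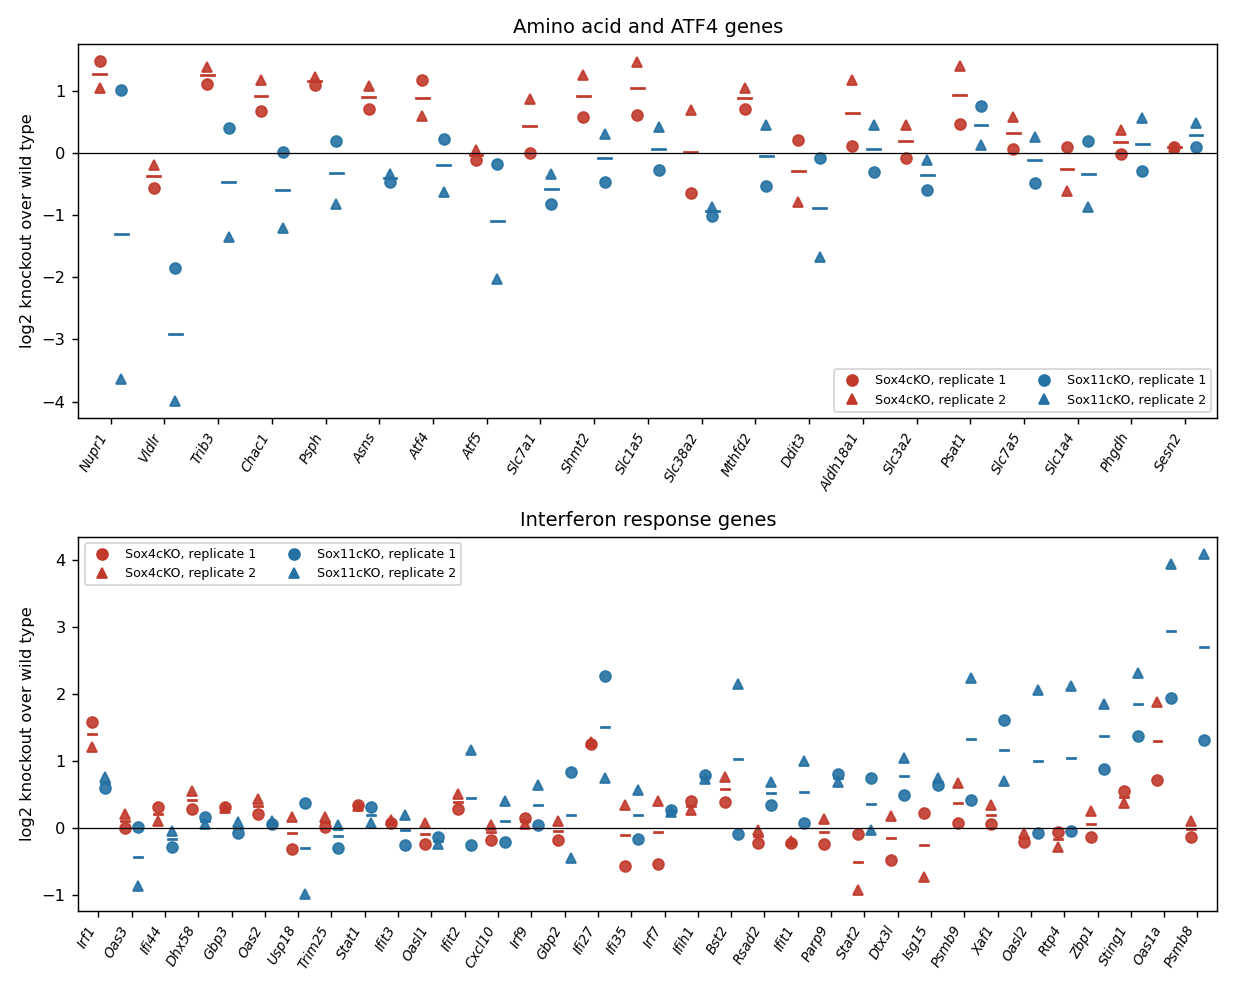
Log2 ratio of knockout over wild type on each single knockout array for the amino acid and ATF4 genes (upper panel) and the interferon response genes (lower panel), ordered by the difference between genotypes, with short lines for the mean of 2 arrays. In the upper panel the Sox4cKO means lie above the Sox11cKO means for all genes but *Sesn2*, and in the lower panel the widest values are those of Sox11cKO replicate 2.

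Cell cycle genes had positive ratios in both single knockouts on replicate 2. Of 40 genes on the list, 18 had a positive mean effect at an unadjusted limma p below 0.05 and 0 a negative one, against 6.31% and 6.08% of all autosomal genes, and the medians of the list were -0.08 and 0.59 on the Sox4cKO arrays and 0.03 and 0.79 on the Sox11cKO arrays. These array medians differed more with the replicate number, which also sets the dye, than between the genotypes. The fitted medians of the list, with the dye term, were 0.24 in Sox4cKO and 0.43 in Sox11cKO. The median mean effect of the list was 0.31 with all arrays. It was 0.22 without Sox4cKO replicate 2 and 0.2 without Sox11cKO replicate 2, beside 0.39 and 0.38 without replicate 1 of each. Replicate and dye cannot be told apart here.

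Genes of the epidermal differentiation complex, which encode proteins of the cornified envelope, depended on single arrays. Of 53 genes 39 were detected, 13 had a higher ratio in Sox4cKO at an unadjusted limma p below 0.05 and 4 a lower one, against 4.96% and 4.56% of all autosomal genes. The median difference of the list was 0.5 with all arrays, and 0.94 and 0.06 without Sox4cKO replicate 1 and replicate 2. It was 0.99 and -0.14 without Sox11cKO replicate 1 and replicate 2. *Lce3a* had ratios of 0.11, 1.85, 0.15 and -3.79 in the order of the arrays above, and *Tchh* (trichohyalin) of -0.40, 0.62, 0.28 and -6.33. Of the 4 arrays only Sox11cKO replicate 2 had low ratios of both genes. There *Lce3a* had log2 signals of 8.76 in the knockout and 12.55 in the wild-type channel, and *Tchh* of 5.37 and 11.7. Wild-type signals on the other single knockout arrays were 5.45 to 7.92 for *Lce3a* and 5.98 to 7.08 for *Tchh*. Over the 4 arrays the median level of the list was 7.02 to 7.52 in knockout and 6.95 to 10.36 in wild-type channels. None of the 53 was called in any comparison of the single losses.

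In the BMP pathway list of 25 genes, 17 were detected. *Sostdc1* and the inhibitory *Smad6* were called in Sox11cKO, against 0.176% of all autosomal genes. *Smad6* had log2 ratios of -0.82 and -2.63 there and of -0.31 and -1.46 in Sox4cKO, and the ligand gene *Bmp7* had -1.10 and -5.12 against 0.12 and -1.08 (difference 2.63, not called). Of 16 imprinted growth genes, 7 were detected and only *Plagl1* was called. Its calls were in Sox11cKO, for the difference and for the mean effect, against 0.176%, 0.0195% and 0.0976% of all autosomal genes. *H19* had ratios of -0.64 and 0.50 in Sox4cKO and of 1.19 and 1.47 in Sox11cKO, *Cdkn1c*, an inhibitor of cyclin-dependent kinases, of 0.26 and 1.79 against -0.79 and -0.56, and *Mest* of -0.24 and -0.80 against -1.89 and -1.42. Of 46 Wnt pathway genes, 25 were detected and 0 were called in limma for the difference, with 7 higher and 2 lower in Sox4cKO at an unadjusted p below 0.05, against 4.96% and 4.56% of all autosomal genes.

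The 25 targets that the study listed as positively regulated by SOX11 and SOX4 had median log2 ratios of -0.02 in Sox4cKO and -0.21 in Sox11cKO cells. That list was chosen partly on these samples, where the study focused on genes changed in dcKO alone. A lack of calls in the single knockouts was favoured by this choice and is not a separate result. Of the 25, 21 were detected and 0 were called in limma in either genotype, with 6 lower and 1 higher in Sox4cKO and 5 lower and 1 higher in Sox11cKO at an unadjusted p below 0.05. Over all autosomal genes the shares at such a p were 5.15% lower and 5.42% higher in Sox4cKO, and 5.7% lower and 5.13% higher in Sox11cKO. The difference had such a p for 2 genes that were higher and 1 that was lower in Sox4cKO. *Gng2* had ratios of 1.5 and 0.41 in Sox4cKO and of 1.07 and 2.48 in Sox11cKO, and of -3.22 and -3.02 in dcKO.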

How the data were processed

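Two-colour Agilent microarrays compared knockout with wild-type keratinocyte RNA for Sox4cKO, Sox11cKO and dcKO, 2 biological replicates each, with the colours swapped between replicates. All 6 arrays lay on 1 slide. The deposited files give spot intensity values from Agilent Feature Extraction 11.0.1.1, run by the authors. The deposited log10 ratios of that program were not used. The authors' value table holds log2 ratios after their own dye correction and served as an alternative.

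Median signals were corrected with normexp (offset 16) on local backgrounds and normalised by loess within arrays in limma 3.58.1 (R 4.3.3), with control spots at weight 0 and outlier spots as missing values (364 to 551 per array). Knockout was in Cy5 on replicate 1 and in Cy3 on replicate 2, and each ratio was turned to knockout over wild type. Spots of a probe were averaged (55681 probes). The model over all 6 arrays held a term per genotype and a dye term, which here equals a replicate block, since the same-numbered arrays share the dye. Deviations of same-numbered arrays correlated at 0.316 between the single knockouts. P-values were adjusted by Benjamini-Hochberg over all probes. Calls needed an adjusted p below 0.05 and a log2 value beyond 1.5.

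RefSeq accessions gave 28331 probes a symbol on GRCm38.p6, and the 1189 named probes off the autosomes were left out of the text. The brightest probe stands for a gene. The array number limits precision. Named genes were those called in a comparison, up to 15 per direction, filled to 10 with the largest values at an unadjusted p below 0.01 among detected genes with separate groups (for the mean, 1 sign). Named as well were genes called in both knockouts, up to 10 per direction called in 1 knockout, and from each list those called and the 3 largest differences. Genes named outside this rule were chosen after their values were seen. The members and lists were chosen with earlier results of these data known. Some named genes are not reported here. The steps were tested on simulated data.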

Additional observations from a re-analysis of the deposited data

Results flagged for a closer look

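The effects of the single losses against wild type were tested for a difference between the genotypes, and that test was passed by 4 autosomal genes. The ratio in Sox4cKO exceeded that in Sox11cKO by 7.79 for *Krt90*, by 3.96 for *Plagl1* and by 3.55 for *Rnf130* on the log2 scale. For *Fkbp10* the difference was -3.67. With 2 arrays per genotype, arrays that stand apart from their group were not tested.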

How the results depend on the processing

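With 2 arrays per genotype and 2 residual degrees of freedom, the counts of called probes depended strongly on the settings, and the cause was not tested. The counts were 79 in Sox4cKO, 48 in Sox11cKO, 6 for the difference and 33 for the mean effect. With an offset of 50 they became 3, 0, 1 and 0 in that order. With the processed signals of Feature Extraction all were 0 in limma, with 3697, 3602, 3406 and 4012 probes at an unadjusted p below 0.05. Without the dye term, that is without the replicate block, they were 35, 18, 1 and 12. From the authors' value table they were 122 in Sox4cKO, 94 in Sox11cKO and 55 for the difference. With the dye effect subtracted first, 36 were called in Sox4cKO and 20 for the mean. With dim probes left out, 19 and 24 were called in Sox4cKO and Sox11cKO. The difference was called for 17 probes with median centring, 10 with only the single knockout arrays and 33 with a mean-variance trend, which was chosen after seeing the data. Without the limit on the log2 value, 109 were called for the mean. Leaving out single arrays gave 0 to 185 in Sox4cKO, 52 to 798 in Sox11cKO, 1 to 798 for the difference and 2 to 263 for the mean, where a lone array was assumed to vary like the others. Of the gene values recomputed under these alternatives none reversed, and many genes named from the lists were not recomputed. Mean spot signals were not run.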

Other observations

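Some genes differed between the arrays of the genotypes in knockout and wild-type channels alike. All channels of the Sox4cKO arrays lay above those of the Sox11cKO arrays by over 2 log2 units for 7 detected genes, and below them for 8. *Serpina3f*, a serine protease inhibitor, had log2 signals of 14.8 and 14.8 in Sox4cKO and of 15 and 15.8 in their controls, beside 7.8 and 9.1 in Sox11cKO and 5.9 and 7.9 in theirs. *Lgals7*, a galectin of stratified epithelia, had 9.1 and 9.0 in Sox4cKO and 9.7 and 7.1 in the controls, beside 13.3 and 14.9 in Sox11cKO and 13.4 and 15.2 in theirs. *Spon2*, a matrix protein, had 5.7 and 5.9 in Sox4cKO and 6.0 and 6.5 in the controls, beside 12.1 and 10.8 in Sox11cKO and 12 and 11.6 in theirs. These genes were chosen after their values were seen.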
